A study of Caenorhabditis elegans with 15 samples.

Results

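The comparison described here set the u74 mutant against mec-8(e398), 2 mutant genotypes of the nematode Caenorhabditis elegans, without the wild type. One group of animals carried u74, an allele that the labels call a knockout without naming its gene, and the other carried mec-8(e398), also labelled a knockout and called e398 below. The deposited data are titled as MEC8 mutants, and no label says whether u74 is also an allele of mec-8. The comparison may therefore be between alleles of the same gene. Both came from the N2 strain, were staged at the last larval stage (L4) and were taken whole, and their RNA was selected for poly(A) tails before sequencing. No label gives an age in hours, a temperature or an outcross, and none says whether libraries of a genotype came from separate cultures, so the spread between libraries may be technical. There were 3 libraries of each genotype, 6 of the 15 in the series. The deposited table holds 1 average normalized count per gene and genotype (reads divided by the size factor of their library, averaged over libraries), and 17376 of its 46926 genes had at least 20 in either column. For these genes the log2 ratio of the averages, u74 over e398 with 1 added to each, was computed, and a gene is called higher or lower in u74 where the averages differed at least 2-fold.

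MEC-8 is an RNA-binding protein of the nucleus that controls alternative splicing in touch neurons, epidermis and muscle, and it was found through mutants that do not respond to gentle touch. Touch receptor neurons sense a light stroke through a channel complex held in register with microtubules and a specialised matrix. At L4 the hermaphrodite gonad makes sperm and then turns to oocytes, and the epidermis builds the adult cuticle before the last moult, so transcripts of these tissues change quickly at this stage. Transcripts of other tissues (intestine, muscle, nerve cells) are read in the same libraries, and in whole animals fewer cells of a type and less RNA per cell cannot be told apart.

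The averages of low genes are sums of whole reads of 3 libraries, and every average up to 300 normalized counts came from 1 set of reads only, so each library's value could be recovered there. Libraries are numbered by falling size factor, which was 1.95, 1.58 and 1.46 for u74 libraries and 0.685, 0.609 and 0.476 for e398 libraries. A mean of at least 5 normalized counts over both genotypes was required, and 6590 genes were tested with limma on log2(normalized count + 1), with Benjamini-Hochberg adjustment over all of them. In the tested genes u74 libraries held 491475 to 664536 reads and e398 libraries 204347 to 282019 reads. Library 2 of e398 stood apart, being at least 4-fold above or below both other e398 libraries for 14.1% of tested genes, against 0.744% to 5.92% for the other 5 libraries. Rank correlations over the tested genes were 0.927 to 0.948 between u74 libraries, 0.615 to 0.846 between e398 libraries and 0.269 to 0.478 across genotypes, as a description of libraries that share a gene set. The counting is not stated to use strand, so reads of overlapping genes cannot be told apart. Among genes named here this holds for ace-2, act-4, asd-2, bli-2, col-8, col-19, fat-5, fbf-1, fbn-1, glb-26, lin-28, lin-29, lon-3, mbk-2, mec-12, mec-17, mlt-10, nhr-8, nhr-114, pbs-4, ptl-1, ule-1, unc-22, unc-52 and vit-2, and for others said so below.

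By average, 4839 genes (27.8%) were at least 2-fold higher in u74 and 6456 (37.2%) at least 2-fold lower, and the median log2 ratio was -0.20. These shares are the background for each count of a gene list by average below. At least 4-fold, 2413 genes (13.9%) were higher and 4333 (24.9%) lower. Over the recovered libraries 962 of 6590 genes (14.6%) rose in u74 and 2380 (36.1%) fell, at an adjusted p under 0.05. All u74 libraries were above all e398 libraries for 1272 tested genes (19.3%) and below them for 2708 (41.1%), and 3308 of the 3342 genes that rose or fell had groups that did not overlap. An exact permutation of 3 against 3 libraries cannot give a two-sided p under 0.1. The balance of directions depends on the scale: TMM factors between the columns add 0.36 to each log2 ratio and give 5998 higher and 5598 lower genes, and equal column totals add 1.01 and give 8108 and 4322. TMM factors on the libraries gave 1731 genes that rose and 1708 that fell. Among genes that rose, u74 library 3 was the highest u74 library in 501 of 962, and without it 626 genes rose. Without e398 library 2, 1263 rose and 2380 fell.

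**Figure D1:**
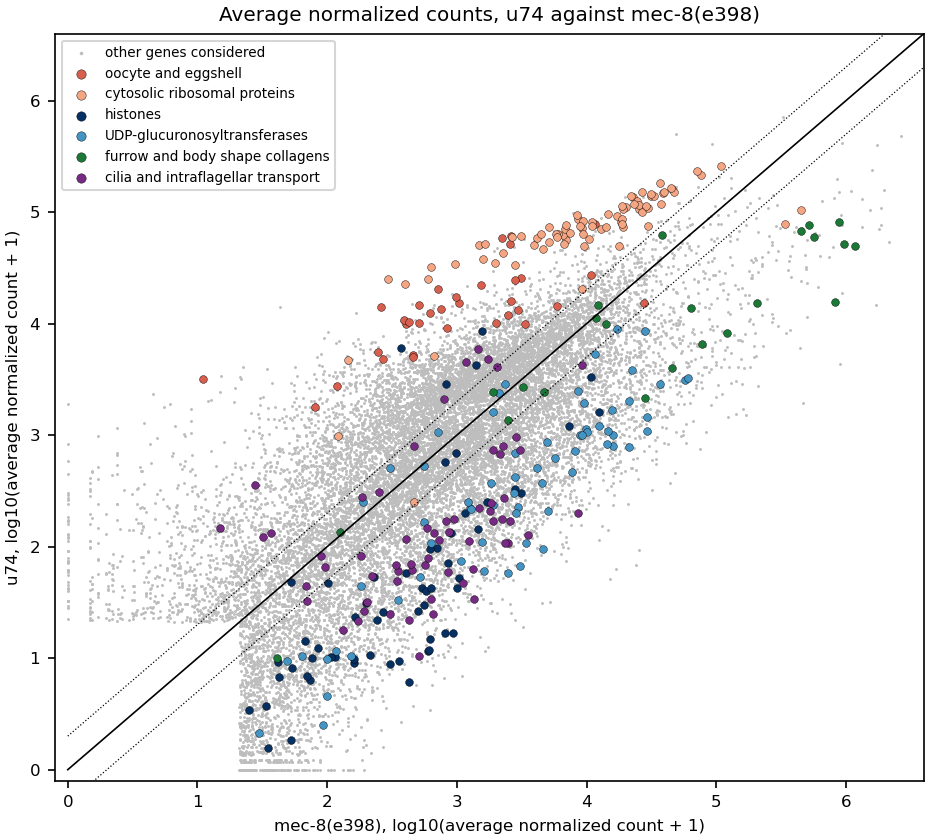
Average normalized count of each gene considered in u74 (vertical axis) against e398 (horizontal axis), both as log10(average + 1), with 6 gene groups in colour. The solid line marks equal averages and the dotted lines a 2-fold difference. Oocyte and cytosolic ribosomal protein genes lie above the lines, apart from a few members, and most histone, UDP-glucuronosyltransferase and cilia genes lie below.

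The mec-8 gene averaged 2239 in u74 and 1069.6 in e398, a log2 ratio of 1.07, so that its level did not check the e398 label: the mutant transcript was still read, and it overlaps the gene C17E4.10, whose reads cannot be told apart without a stated strand. The 4 transcripts known to be spliced by MEC-8 were all lower in u74, against 37.2% of all genes, although 3 stayed past 2-fold with TMM factors and 2 with equal column totals. mec-2, a stomatin-like part of the touch channel, averaged 606 in u74 and 3036 in e398 (log2 ratio -2.32). fbn-1, a fibrillin-like protein of the epidermal matrix, averaged 2373 in u74 and 23972 in e398 (log2 ratio -3.34). sad-1, a kinase of neuronal polarity, averaged 753 in u74 and 2157 in e398 (log2 ratio -1.52), and unc-52, the perlecan of muscle basement membrane, averaged 57984 in u74 and 145342 in e398 (log2 ratio -1.33). Gene totals do not show which splice forms were read, and none of these averages could be split into libraries.

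Germline transcripts of the oocyte side were far higher in u74. Of 34 oocyte and eggshell genes 33 were higher and 0 lower, with a median log2 ratio of 4.15, beside 27.8% higher among all genes, and the group took 0.995% of all normalized counts in u74 and 0.0738% in e398. meg-1, a protein of germ granules in the early embryo, averaged 3173 in u74 and 10.1 in e398 (log2 ratio 8.16). pos-1, a zinc finger protein stored in oocytes for the embryo, averaged 14186 in u74 and 257 in e398 (log2 ratio 5.78). The eggshell proteoglycans showed the same order, with cpg-1 at 51282 in u74 and 2557 in e398 and cpg-2 at 58138 in u74 and 2211 in e398. puf-5, a translational repressor of oocytes, averaged 20590.1 in u74 and 712 in e398, and cey-2, a Y-box protein that packages maternal mRNA, 61301 in u74 and 2598 in e398. The kinase mbk-2, which acts at the oocyte-to-embryo transition and is read in somatic cells too, averaged 15326 in u74 and 27886 in e398, the only member within 2-fold.

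The other germline groups were mixed. Of 45 genes of germline proliferation and meiosis 28 were higher and 2 lower (median 1.34). gld-1, the translational repressor of the meiotic germline, averaged 47517 in u74 and 2029.8 in e398, gld-4, a cytoplasmic poly(A) polymerase, 14014 in u74 and 751 in e398, and hrde-1, a nuclear Argonaute of small RNA inheritance, 29686 in u74 and 1885 in e398. The 2 lower members were the stem cell regulators fbf-1, at 2434 in u74 and 6032 in e398, and fbf-2, at 2477 in u74 and 5042 in e398. Among 6 yolk protein genes 4 were higher (median 1.92). Yolk proteins are made in the adult intestine and taken up by oocytes, and vit-6 averaged 498418 in u74 and 48624 in e398 and vit-2 405211 in u74 and 92146 in e398. The closely similar vit-3, at 33492 in u74 and 59396 in e398, and vit-4, at 33452 in u74 and 33786 in e398, differed less, and reads of vit-3, vit-4 and vit-5 may be split between copies. The receptor rme-2, which takes yolk into oocytes, averaged 27427 in u74 and 10765 in e398.

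Sperm transcripts went both ways. Of 31 major sperm protein genes, which code for the protein that drives sperm crawling, 10 were higher and 18 lower in u74, and with equal column totals the order turned to 11 higher and 6 lower. msp-40 averaged 10212 in u74 and 51281 in e398 and msp-59 10617 in u74 and 52606 in e398, whereas msp-76 averaged 9197 in u74 and 1059.5 in e398 and msp-77 6963 in u74 and 792 in e398. These genes are nearly identical, so the split of reads between them is uncertain. Summed over the family, u74 held 188325 and e398 470828 normalized counts. Of 44 other sperm genes 8 were higher (18.2%, against 27.8% of all genes) and 11 lower (25%, against 37.2%), with a median of -0.16. The order turned to 12 higher and 4 lower with TMM factors. spe-44, a transcription factor that starts sperm development, averaged 1627 in u74 and 6476 in e398. ssp-37 had 106, 193 and 246 normalized counts in u74 libraries, against 0, 1.64 and 0 in e398 libraries, and it rose (adjusted p = 0.000543). Every u74 library was above every e398 library. Of the 8 sperm genes of this group tested, 1 rose (12.5%, near the 14.6% of all tested genes) and 0 fell (against 36.1%). Without e398 library 2, 1 rose and 4 fell. That library's median over the 8 genes was 24.6 normalized counts, against 149.0 and 174.5 in the other e398 libraries.

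**Figure D2:**
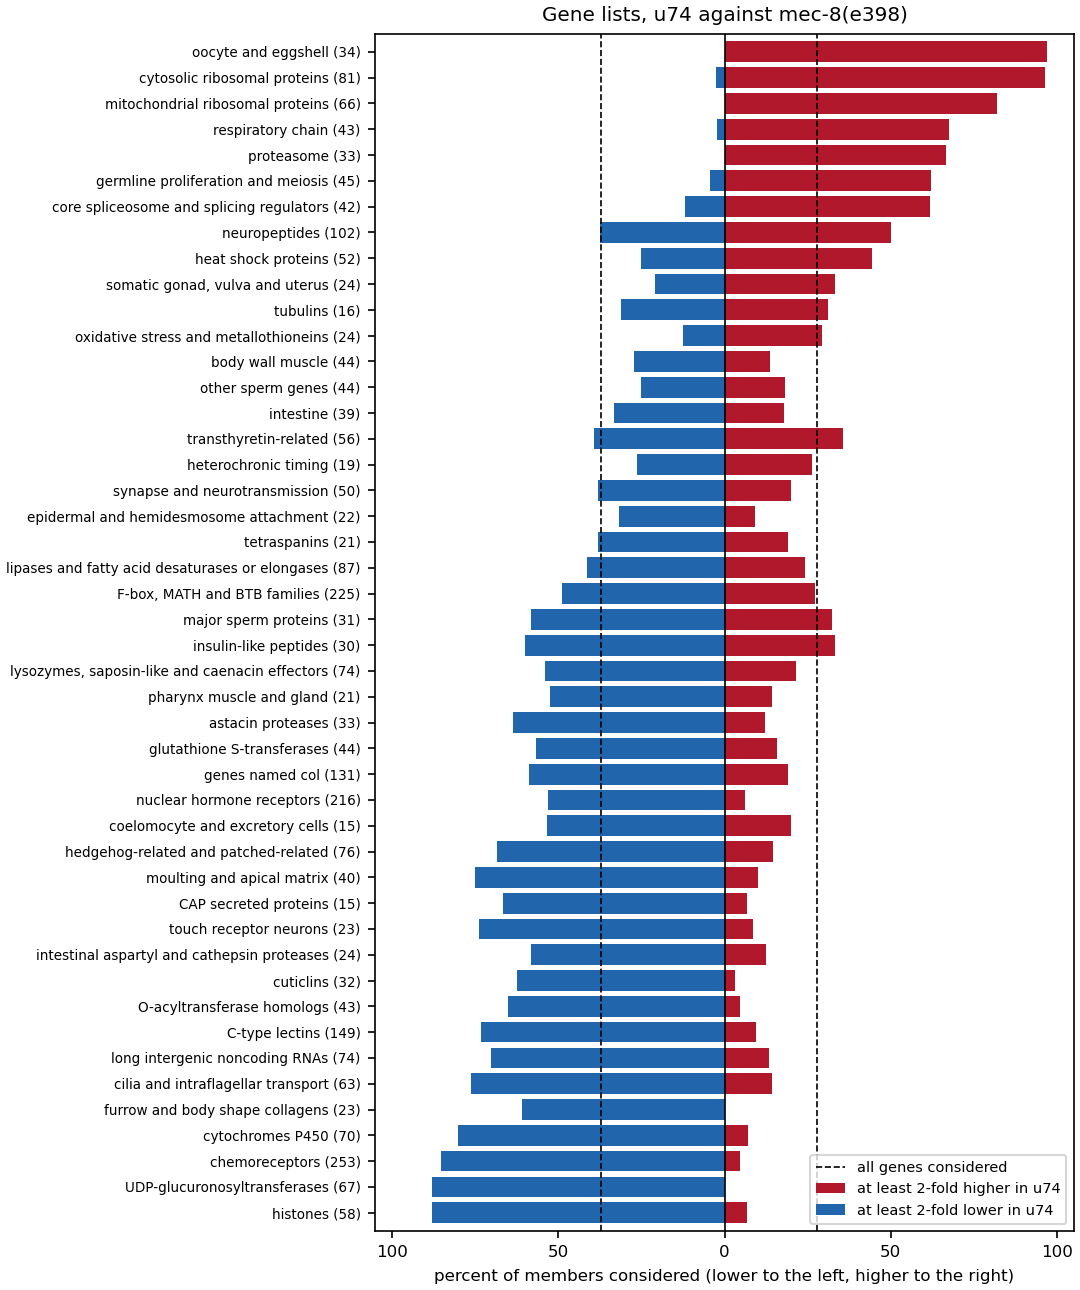
Percent of the considered members of each gene list that were at least 2-fold higher (to the right) or lower (to the left) in u74 than in e398, lists of 15 or more ordered by median log2 ratio, with the number of members in brackets. Dashed lines give the shares of all genes considered, 27.8% higher and 37.2% lower. The oocyte and cytosolic ribosomal protein lists are at the top with over 90% higher, and histones and UDP-glucuronosyltransferases at the bottom with 87.9% and 88.1% lower.

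Genes of the protein-making machinery were also higher in u74. Of 81 cytosolic ribosomal protein genes 78 were higher and 2 lower (median 2.67), and the family took 10.98% of all normalized counts in u74 and 1.69% in e398. rpl-29 averaged 25301 in u74 and 292 in e398, rps-28 22473 in u74 and 396 in e398 and rps-29 31893 in u74 and 633 in e398, with log2 ratios of 6.43, 5.82 and 5.65. The members lower in u74 were rpl-7A, at 104249.9 in u74 and 453009.9 in e398, and rpl-12, at 78825 in u74 and 341431 in e398, and rpl-12 is known for splice forms that nonsense-mediated decay removes. Of 66 mitochondrial ribosomal protein genes 54 were higher and 0 lower (median 1.80), led by mrpl-45 at 3007 in u74 and 67.2 in e398. Of 43 nuclear genes of the respiratory chain 29 were higher and 1 lower. cox-7C, a subunit of cytochrome c oxidase, averaged 14697 in u74 and 663 in e398, whereas atp-1, the alpha subunit of ATP synthase, averaged 153202 in u74 and 880896 in e398 and its partner atp-2, the beta subunit, 166039 in u74 and 130923 in e398. Of 33 proteasome genes 22 were higher and 0 lower, among them the core subunit pbs-4 at 9374 in u74 and 1398 in e398. None of these families had more than 1 member low enough for the test over libraries.

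Within these families the ratio went with transcript length. Over the 81 cytosolic ribosomal protein genes the rank correlation of annotated exon length with the log2 ratio was -0.77: rpl-29, at 240 bases, had the highest ratio, and rpl-3, at 1456 bases, had 1.25. The correlation was -0.50 over the 66 mitochondrial ribosomal protein genes, -0.76 over the 43 respiratory chain genes, -0.72 over the 33 proteasome genes and -0.63 over 42 genes of the spliceosome and its regulators. Over all 16074 protein-coding genes it was -0.06, and over 131 col genes 0.13, 149 C-type lectin genes -0.04 and 216 nuclear hormone receptor genes 0.29. Negative values were also seen outside the housekeeping lists: -0.52 over 24 genes of somatic gonad, vulva and uterus, -0.39 over 44 other sperm genes and -0.34 over 34 oocyte and eggshell genes. Among protein-coding genes with at least 1000 in the higher column the median log2 ratio was 1.64 for 47 genes up to 300 bases, 1.12 for 778 genes of 500 to 750 bases, 0.18 for 2212 genes of 1000 to 1500 bases and -0.61 for 361 genes over 5000 bases. These are descriptions over genes that share the same 6 libraries and their depths, and the part of length in the family differences was not tested.

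**Figure D3:**
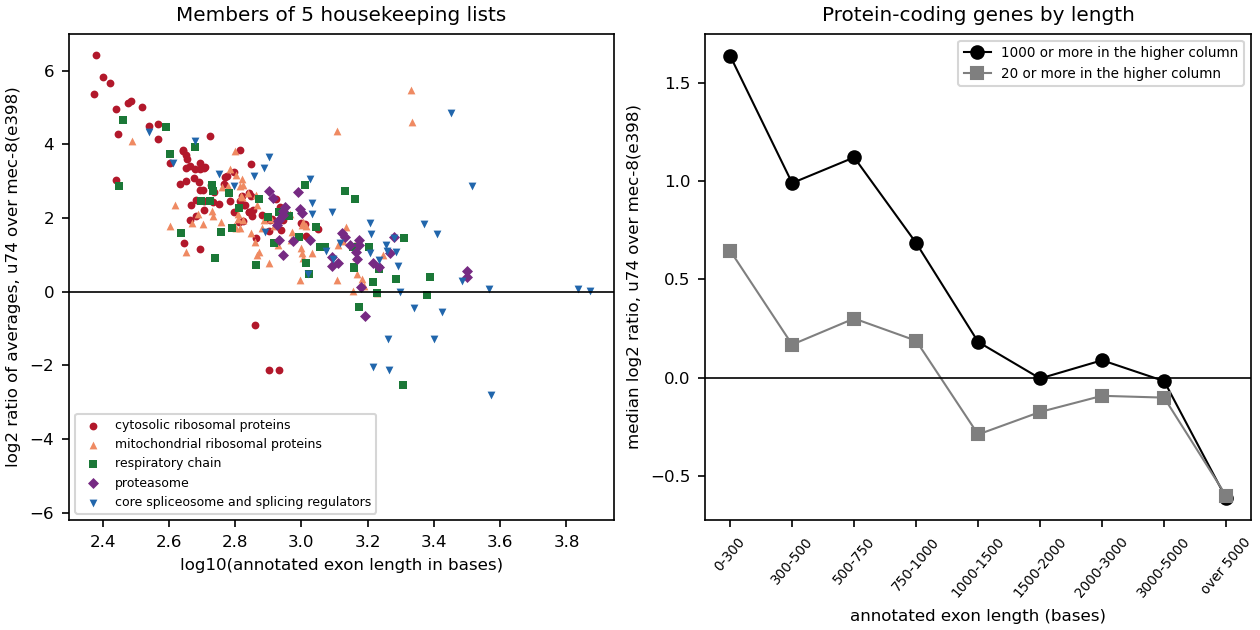
Left, log2 ratio of averages (u74 over e398) of each member of 5 housekeeping gene lists against log10 of its annotated exon length in bases. Right, median log2 ratio of protein-coding genes by exon length class, for genes with at least 1000 (black circles) or at least 20 (grey squares) in the higher column. Short transcripts lie higher on both sides, and the median of genes over 5000 bases is about -0.6 in both sets.

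Splicing genes leaned higher. Of 42 genes of the spliceosome and its regulators 26 were higher in u74 (61.9%, against 27.8% of all genes) and 5 lower (11.9%, against 37.2%), with a median of 1.30. sfa-1, the branch point binding protein, averaged 7683 in u74 and 267 in e398, and the Sm core proteins snr-5 and snr-7 averaged 3392 in u74 and 167 in e398 and 2755 in u74 and 162 in e398. Lower members were asd-2, a regulator of muscle splicing, at 3701 in u74 and 26041 in e398, and hrpa-1, an hnRNP A1 homolog, at 20355 in u74 and 84416 in e398. prp-8, the scaffold of the catalytic core, averaged 34469 in u74 and 34099.9 in e398. Of 11 genes of nonsense-mediated decay, the surveillance of transcripts with early stop codons, 3 were higher (27.3%, near the 27.8% of all genes) and 0 lower. The helicase of this pathway, smg-2, averaged 8254 in u74 and 5357 in e398.

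Most histone genes were lower in u74, though the family took 0.04996% of all normalized counts in u74 and 0.04933% in e398. Of 58 histone genes considered 51 were lower and 4 higher (median -3.24, against 37.2% lower among all genes), and of 27 tested 23 fell and 0 rose, beside 36.1% of all tested genes. his-14, an H4 gene with nearly identical copies, had 10.3, 7.58 and 6.17 normalized counts in u74 libraries, against 209, 87.1 and 185 in e398 libraries, for 1 of the identifiers of that name. It changed by -4.09 ± 0.49 (log2, SE, as for all such pairs below, adjusted p = 0.000755), and all u74 libraries were below all e398 libraries, of which library 2 was the lowest. his-1, another H4 gene, had 8.73, 8.21 and 12.3 in u74 libraries, against 280.4, 95.3 and 265 in e398 libraries, a difference of -4.19 ± 0.53 (adjusted p = 0.000804). Over the 27 tested histone genes the library medians were 9.75, 7.58 and 6.86 in u74, against 93.5, 31.2 and 90.4 in e398. The members higher in u74 included his-71, his-72 and his-74, which code for H3.3-type replacement histones, at 2885 in u74 and 829 in e398 for his-71, 8595 in u74 and 1574 in e398 for his-72 and 5990.1 in u74 and 369 in e398 for his-74. The linker histone his-24 averaged 1202 in u74 and 7280.4 in e398.

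Replication histone mRNAs mostly end in a stem loop in place of a poly(A) tail. Noncoding RNA classes were also mostly lower in u74. They included classes that usually lack a tail (piRNA, snoRNA, snRNA, rRNA) and others: 65.6% of genes annotated as lincRNA and 76.5% of antisense RNA genes were lower. Of 133 piRNA genes 132 were lower in u74 and 1 higher, of 302 genes annotated as ncRNA 256 were lower and 25 higher, and of 32 snoRNA genes 29 were lower and 1 higher. Among all genes 37.2% were lower and 27.8% higher, and among those with 20 to 50 in the higher column 56.4% and 17.3%. All 4 snRNA and all 4 rRNA genes considered were lower, and rRNA took 0.809% of normalized counts in u74 and 2.22% in e398. Of 272 piRNA genes tested 223 fell and 1 rose, and of 605 ncRNA genes 456 fell and 24 rose, beside 36.1% and 14.6% of all tested genes. Among genes with at least 20 in e398, 49 piRNA and 60 ncRNA genes had no read in u74. Among piRNA genes that lie outside protein-coding genes 57 of 58 were lower, and among those within them 75 of 75. The piRNA gene 21ur-12442, which overlaps K08B4.7, had 0.513, 0.632 and 0.686 normalized counts in u74 libraries, against 413, 182 and 208 in e398 libraries (adjusted p = 0.000492), 1 read in each u74 library. 21ur-6898 had 1.54, 0 and 0 in u74 libraries, against 138.7, 158 and 130.4 in e398 libraries. Both were near 0 in u74. Both loci are 21 bases long, and the RNA was selected for poly(A) tails. Which RNA gave the reads at piRNA loci was not tested, so these counts need not be levels of mature piRNA. Of 74 long intergenic noncoding RNA genes named linc 52 were lower and 10 higher. linc-152 had 0, 0 and 0 in u74 libraries, against 108, 93.6 and 118 in e398 libraries, whereas linc-76, which overlaps Y48A6C.4 and Y48A6C.8, had 146, 111 and 198 in u74 libraries, against 5.84, 9.86 and 4.21 in e398 libraries. What the share of tail-less RNA contributes to the histone result was not tested.

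**Figure D4:**
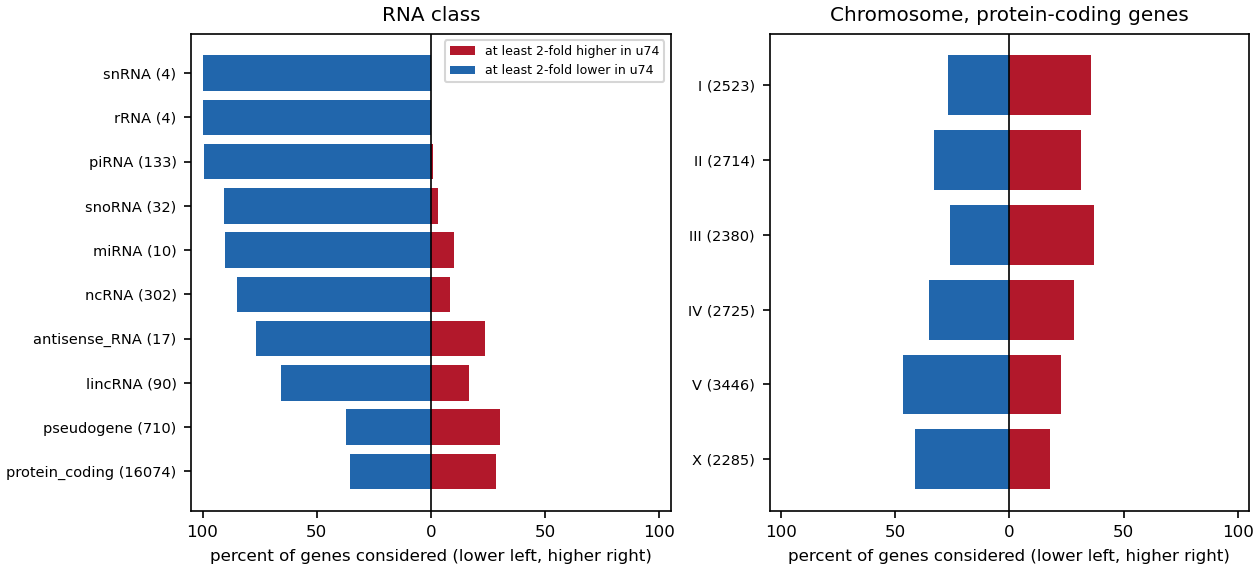
Percent of genes at least 2-fold higher (right) or lower (left) in u74 than in e398, by annotated RNA class and, for protein-coding genes, by chromosome, with the number of genes considered in brackets. Classes that usually lack poly(A) tails (snRNA, rRNA, piRNA, snoRNA) are over 90% lower in u74, against 35.4% of protein-coding genes, and chromosomes V and X have the largest shares of lower genes.

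Cuticle and moulting transcripts were mostly lower in u74 by average. Cuticle collagens are secreted by the epidermis in a fixed order before each moult, and 77 of the 131 considered col genes were lower, against 25 higher (median -1.46). col-176 averaged 4385 in u74 and 902881 in e398 and col-38 54023 in u74 and 2158852 in e398. In the other direction col-8 averaged 14202 in u74 and 42.4 in e398, col-95 1773 in u74 and 4.50 in e398 and col-135 587 in u74 and 7.06 in e398. Of 24 col genes low enough to be tested 10 fell (41.7%) and 2 rose (8.33%), near the 36.1% and 14.6% of all tested genes, with 5 that fell under TMM factors, and 0 rose without u74 library 1, 2 or 3 or without e398 library 1 or 3. col-171 had 1.03, 0.632 and 0 normalized counts in u74 libraries, against 23.4, 73.9 and 44.2 in e398 libraries (adjusted p = 0.000875), with no overlap. Of 23 collagens that shape the annular furrows and body, or genes that act with them, 14 were lower and 0 higher. rol-8, whose mutants roll, averaged 15749 in u74 and 828376 in e398, sqt-3 49254 in u74 and 1170043 in e398 and rol-1 52123 in u74 and 970075 in e398, whereas dpy-5, of the same kind, averaged 62213 in u74 and 38346 in e398.

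The apical matrix and its signals were also mostly lower by average. Among 40 genes of moulting and the apical matrix, 30 had lower and 4 had higher averages in u74 (median -1.74), with mlt-10, a moulting protein, at 10944 in u74 and 87815 in e398 and the lipocalin lpr-3 at 5457 in u74 and 130885 in e398. Of 76 hedgehog-related and patched-related genes, secreted proteins and sterol-sensing receptors used in cuticle renewal, 52 were lower and 11 higher. wrt-1 averaged 2194 in u74 and 98952 in e398, whereas ptc-1, a patched homolog needed in the germline, averaged 26915 in u74 and 3055 in e398. Of the 20 tested 9 fell (45%, against 36.1% of all tested genes) and 2 rose, 4 fell under TMM factors, 5 fell without u74 library 1 or u74 library 3, 0 rose without any 1 u74 library and 4 rose without e398 library 2. ptr-9 had 16.4, 9.48 and 11.0 in u74 libraries, against 253, 417 and 96.7 in e398 libraries, so that every u74 library was lower. Of 32 cuticlins and related ZP-domain proteins 20 were lower and 1 higher, and cut-2, a cross-linked cuticle component, averaged 25584 in u74 and 188422 in e398. Of 14 cuticlins tested 3 fell (21.4%) and 0 rose, below the 36.1% of all tested genes that fell, and 0 fell without u74 library 1, u74 library 2 or e398 library 1, 1 without e398 library 3 and 5 without e398 library 2. Of 33 astacin proteases 21 were lower and 4 higher. nas-36, which digests old cuticle at the moult, averaged 2224 in u74 and 17162 in e398.

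Timing genes were divided. The heterochronic pathway orders larval fates. Of its 19 genes 5 were higher in u74 (26.3%, near the 27.8% of all genes) and 5 lower (26.3%, against 37.2%), or 7 and 3 with TMM factors. lin-41, which is also expressed in oocytes, averaged 13407 in u74 and 751 in e398, and lin-28, an RNA-binding protein of early larvae, 1880.4 in u74 and 163 in e398. lin-29, the transcription factor of the adult epidermal switch, averaged 1468 in u74 and 5744 in e398, and hbl-1, a hunchback-like factor of earlier stages, 508 in u74 and 2015 in e398. Of 7 genes listed for adult epidermis 4 were lower (57.1%) and 2 higher (28.6%), beside 37.2% and 27.8% of all genes. col-19, the usual adult marker, averaged 67364 in u74 and 15879 in e398 and col-7 11897 in u74 and 3635 in e398. The cuticle collagens bli-2 and lon-3 were lower in u74: bli-2 averaged 8295 in u74 and 121294 in e398 and lon-3 6578 in u74 and 77281 in e398. Since both genotypes are labelled L4 with no finer time, genotype and stage within L4 cannot be told apart here.

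Muscle and attachment genes showed no common direction. Of 44 body wall muscle genes 12 were lower (27.3%, against 37.2% of all genes) and 6 higher (13.6%, against 27.8%), near a median of 0.07. Equal column totals turned this to 24 higher and 6 lower. act-4, an actin of body wall muscle, averaged 158224 in u74 and 1964057 in e398, unc-15, the paramyosin of thick filaments, 155996 in u74 and 1087272 in e398, and unc-54, the main myosin heavy chain, 419905 in u74 and 924330.1 in e398. unc-22, the giant kinase twitchin, averaged 45948 in u74 and 9725 in e398. Of 22 genes of epidermal and hemidesmosome attachment 7 were lower (31.8%) and 2 higher (9.09%), turning to 2 lower and 4 higher with equal totals. The basement membrane collagen let-2 averaged 125832 in u74 and 651774 in e398 and its partner emb-9 78055 in u74 and 103224 in e398, whereas the laminin chains lam-1 and lam-2 averaged 19645 in u74 and 1718 in e398 and 16719 in u74 and 2192 in e398. mua-3, a receptor that ties epidermis to cuticle, averaged 22518 in u74 and 106076 in e398.

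Markers of other somatic organs differed between organs. Of 21 genes of pharynx muscle and gland 11 were lower (52.4%, against 37.2% of all genes) and 3 higher (14.3%, against 27.8%). Equal column totals gave 7 lower and 5 higher. The organ's regulator pha-4 averaged 898 in u74 and 7184 in e398. Of 15 coelomocyte and excretory genes 8 were lower (53.3%) and 3 higher (20%), and equal column totals gave 5 lower and 5 higher. The glutamate transporter glt-3 averaged 664 in u74 and 10362 in e398. Of 39 intestinal genes 13 were lower (33.3%) and 7 higher (17.9%), both shares below those of all genes (37.2% and 27.8%). Their median of -0.17 passes 0 under TMM factors. elt-7, an intestinal GATA factor, averaged 517 in u74 and 6538 in e398, and the cathepsin cpr-6 36627 in u74 and 365671 in e398, whereas the desaturase fat-5 averaged 1370.0 in u74 and 41.8 in e398. Of 24 genes of somatic gonad, vulva and uterus 8 were higher (33.3%, against 27.8% of all genes) and 5 lower (20.8%, against 37.2%). The highest ratios there were of the secreted uterine proteins ule-1, at 828 in u74 and 3.32 in e398, ule-5, at 3958 in u74 and 33.4 in e398, and ule-3, at 12583 in u74 and 166 in e398. zmp-1, a protease of vulva and anchor cell, had 103.7, 98.5 and 68.6 in u74 libraries, against 237, 253 and 296 in e398 libraries, and fell (-1.54 ± 0.29, adjusted p = 0.00353), though it overlaps EGAP1.5 and bcl-7.

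Touch receptor neuron genes were mostly lower in u74. Of 23 such genes 17 were lower (73.9%, against 37.2% of all genes) and 2 higher (8.7%, against 27.8%), with a median of -2.103. The special tubulins of the touch neuron microtubules, mec-12 and mec-7, averaged 3155 in u74 and 47663 in e398 for mec-12 and 1581 in u74 and 14503 in e398 for mec-7. mec-17, the tubulin acetyltransferase, averaged 1378 in u74 and 17409 in e398, and unc-86, the transcription factor that starts the fate, 160.2 in u74 and 2141 in e398. The higher members were mec-15, an F-box protein, at 3284 in u74 and 1060.4 in e398, and the microtubule-associated ptl-1 at 910.2 in u74 and 435 in e398. The matrix collagen mec-5 averaged 1874 in u74 and 1432 in e398. Of 4 tested, egl-46 and tba-6 fell (50%, against 36.1% of all tested genes) and 0 rose. Without u74 library 2 or u74 library 3, 0 fell, and 1 fell without e398 library 1 and 3 without e398 library 3. With TMM factors 0 fell and 1 rose. egl-46, a zinc finger protein of touch and other neurons, had 82.1, 75.2 and 53.5 in u74 libraries, against 119.8, 246 and 162 in e398 libraries. Of 16 tubulin genes of all kinds 5 were higher and 5 lower (31.2% each, beside 27.8% and 37.2% of all genes). Among the most counted of them, tba-1 averaged 35615 in u74 and 14033 in e398, tba-2 75599 in u74 and 31305 in e398 and tbb-2 84444 in u74 and 41595 in e398.

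Ciliary genes were mostly lower by average as well. Of 63 genes of cilia and intraflagellar transport, the traffic that builds sensory endings, 48 were lower and 9 higher (median -2.66). These were 76.2% and 14.3%, against 37.2% and 27.8% of all genes. osm-5, a transport particle subunit, averaged 200.1 in u74 and 8653 in e398, and mks-2, of the transition zone, 9.56 in u74 and 507 in e398. Of 15 tested 6 fell (40%) and 3 rose (20%), near the 36.1% and 14.6% of all tested genes. xbx-1, a dynein light intermediate chain, had 27.2, 32.9 and 33.6 in u74 libraries, against 179.6, 233 and 198 in e398 libraries (-2.66 ± 0.33, adjusted p = 0.000791), and it overlaps grd-12. dyf-18 had 24.6, 25.3 and 12.3 in u74 libraries, against 130.0, 191 and 191 in e398 libraries (-3.02 ± 0.43, adjusted p = 0.00118). In both genes all u74 libraries were lower. The ciliary alpha tubulin tba-5 rose, with 159.6, 161 and 117 in u74 libraries, against 16.1, 19.7 and 6.31 in e398 libraries (3.40 ± 0.50, adjusted p = 0.00134), though it overlaps rsd-6. tub-1, a tubby homolog, also rose, with 144, 152 and 102 in u74 libraries, against 23.4, 49.3 and 35.7 in e398 libraries.

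Most chemoreceptor transcripts considered were lower in u74, and each of these receptors is expressed in few sensory neurons. Of 1310 chemoreceptor genes in the annotation 253 were considered and 439 tested, and of those considered 216 were lower and 12 higher (median -3.03). These were 85.4% and 4.74%, against 37.2% and 27.8% of all genes. Among all genes with the lowest counts considered, 56.4% were lower and 17.3% higher. A pseudocount of 10 gave 211 lower and 8 higher chemoreceptor genes and a median of -1.71. A member under 20 in u74 was considered only if e398 reached 20, and what this filter added to the shares was not tested. Of those tested 256 fell (58.3%, against 36.1% of all tested genes) and 10 rose, or 189 and 21 with TMM factors, and 3, 4 and 5 rose without u74 library 2, 3 and 1 while 17 rose without e398 library 2. The median chemoreceptor had 3.59, 3.16 and 2.74 normalized counts in u74 libraries, against 18.98, 22.998 and 18.9 in e398 libraries. srh-129 had 2.57, 1.90 and 0.686 in u74 libraries, against 130.0, 113 and 111 in e398 libraries (-5.52 ± 0.50, adjusted p = 0.000543). sru-38 had 0.513, 0 and 0 in u74 libraries, against 29.2, 67.4 and 77.8 in e398 libraries. Both lay well below e398 in every u74 library. sra-14 went the other way, with 47.7, 83.4 and 126 in u74 libraries, against 0, 1.64 and 2.103 in e398 libraries (adjusted p = 0.000773), again with no overlap.

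Neuropeptide genes leaned the opposite way. Of 102 considered 51 were higher in u74 (50%, against 27.8% of all genes) and 38 lower (37.3%, near the 37.2%), with a median of 0.90. Of 36 tested 23 rose and 4 fell (63.9% and 11.1%), beside 14.6% and 36.1% of all tested genes. Without any 1 u74 library or without e398 library 1, 18 rose, and 25 rose without e398 library 2. Over the 36 the library medians were 102.1, 94.4 and 96.4 in u74, against 28.5, 40.2 and 34.7 in e398. nlp-63 had 43.6, 42.96 and 30.2 in u74 libraries and none in any e398 library, which makes it at least 18.5-fold higher against a floor of 3 reads over the e398 libraries (2.103 normalized counts). flp-26 had 239.7, 230.6 and 219 in u74 libraries, against 32.1, 26.3 and 14.7 in e398 libraries (3.25 ± 0.40, adjusted p = 0.000764). nlp-7 had 251, 279.9 and 232 in u74 libraries, against 57.0, 44.4 and 71.5 in e398 libraries (2.14 ± 0.31, adjusted p = 0.0013). These peptide genes were separated in every library. nlp-23 and nlp-45, which both overlap the gene T01B6.1, fell: nlp-23 had 8.21, 5.05 and 4.80 in u74 libraries, against 133, 133 and 198 in e398 libraries, and nlp-45 had 41.1, 34.1 and 20.6 in u74 libraries, against 177, 338 and 269 in e398 libraries. The abundant nlp-27 and nlp-33, peptides of epidermal defence, averaged 1395 in u74 and 21889.7 in e398 for nlp-27 and 5321 in u74 and 18428 in e398 for nlp-33.

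Other neuronal and signalling genes were split. Of 50 genes of synapse and neurotransmission 19 were lower (38%, near the 37.2% of all genes) and 10 higher (20%, against 27.8%). Equal column totals turned this to 9 lower and 16 higher. unc-25, which makes GABA, averaged 1596 in u74 and 43878 in e398, unc-30, which specifies GABA neurons, 67.2 in u74 and 967 in e398, and ace-2, an acetylcholinesterase, 2007 in u74 and 73.98 in e398. mod-5, the serotonin transporter, had 169.9, 154 and 177 in u74 libraries, against 2.92, 34.5 and 0 in e398 libraries (5.01 ± 1.13, adjusted p = 0.00733), and overlaps Y54E10BR.2. Of 30 insulin-like peptide genes 18 were lower and 10 higher, and of 23 tested 8 fell (34.8%) and 5 rose (21.7%), beside 36.1% and 14.6% of all tested genes, or 5 and 6 with TMM factors. Without u74 library 2, 5 fell, and without e398 library 3, 3 rose. ins-33, a peptide expressed in larval epidermis, averaged 140.4 in u74 and 14542 in e398. ins-11 had 36.96, 15.2 and 16.5 in u74 libraries, against 210.3, 243 and 147 in e398 libraries, whereas ins-7, an agonist of the insulin receptor from the intestine, had 95.98, 97.9 and 175 in u74 libraries, against 14.6, 29.6 and 4.21 in e398 libraries. ins-11 fell (-3.16 ± 0.46, adjusted p = 0.00128) and ins-7 rose (3.14 ± 0.68, adjusted p = 0.00608), and neither gene's groups overlapped.

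Genes of detoxification were mostly lower in u74 by average. UDP-glucuronosyltransferases attach sugars to foreign compounds. Of 67 considered 59 were lower (88.1%, against 37.2% of all genes) and 0 higher (against 27.8%), with a median of -3.23. ugt-26 averaged 3234 in u74 and 60246 in e398, ugt-23 3130.5 in u74 and 57660.4 in e398 and ugt-32 94.7 in u74 and 4623 in e398. Of 10 tested 9 fell (90%, against 36.1% of all tested genes) and 0 rose (against 14.6%), and 1 rose under TMM factors or without e398 library 2. ugt-38 had 2.05, 0.632 and 0.686 in u74 libraries, against 26.3, 18.1 and 42.1 in e398 libraries (-3.79 ± 0.59, adjusted p = 0.00153), with no overlap. Of 70 cytochrome P450 genes, oxidases of drugs and lipids, 56 were lower (80%) and 5 higher (7.14%), beside the same shares of all genes. cyp-35A2 averaged 3578 in u74 and 35740.1 in e398 and cyp-35C1 1555 in u74 and 35195 in e398, whereas cyp-31A2, which acts in eggshell lipid synthesis, averaged 2975 in u74 and 264 in e398. Of 18 tested 10 fell (55.6%, against 36.1% of all tested genes) and 1 rose, 4 fell under TMM factors, and 0 rose without u74 library 3 or e398 library 1. cyp-35A1 had 26.7, 16.4 and 26.7 in u74 libraries, against 388, 166 and 282 in e398 libraries (-3.47 ± 0.43, adjusted p = 0.000797). Of 44 glutathione S-transferases 25 were lower and 7 higher by average, with gst-20 at 1071 in u74 and 82699.8 in e398. Of 18 low members tested 4 fell (22.2%) and 3 rose (16.7%), so that the share that fell was below the 36.1% of all tested genes, and the counts turned to 1 and 6 with TMM factors, and without u74 library 2, 1 rose.

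Nuclear hormone receptors and acyltransferases were also mostly lower by average. Of 216 nuclear hormone receptor genes, ligand-regulated transcription factors that expanded in nematodes, 115 were lower and 13 higher (median -1.46). These were 53.2% and 6.02%, against 37.2% and 27.8% of all genes. nhr-155 averaged 30.1 in u74 and 4553 in e398, nhr-8, a xenobiotic receptor, 911 in u74 and 9349 in e398, and nhr-23, which drives moulting, 3625 in u74 and 16199.9 in e398. nhr-114, which acts in intestine and germline on diet, averaged 8484 in u74 and 1795 in e398. Of 91 tested 32 fell (35.2%, close to the 36.1% of all tested genes) and 5 rose (5.49%, against 14.6%), or 23 and 17 with TMM factors, and 2 rose without u74 library 2 or 3, 3 without u74 library 1 or e398 library 1, and 10 without e398 library 2. nhr-188 had 2.57, 1.26 and 0.686 in u74 libraries, against 55.5, 115.0 and 65.2 in e398 libraries (-4.99 ± 0.56, adjusted p = 0.000632). Of 43 O-acyltransferase homologs 28 were lower and 2 higher, led by bus-1, whose mutants have a changed surface, at 91.6 in u74 and 25350.1 in e398.

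Secreted proteins linked to defence and digestion were mostly lower by average, while genes of lipid metabolism were mixed. Of 149 C-type lectin genes, sugar-binding secreted or membrane proteins, 109 were lower and 14 higher (median -2.49). clec-50 averaged 10245 in u74 and 268060.5 in e398 and clec-150 6325 in u74 and 196391 in e398. Of 76 tested 28 fell (36.8%) and 9 rose (11.8%), close to the 36.1% and 14.6% of all tested genes, or 18 and 16 with TMM factors, and 4 rose without u74 library 2 and 5 without u74 library 3. clec-74 had 4.62, 6.32 and 6.86 in u74 libraries, against 140.2, 174 and 179 in e398 libraries (-4.58 ± 0.42, adjusted p = 0.000543). clec-190 had 20.5, 55.6 and 141 in u74 libraries and none in e398 libraries, at least 34.5-fold higher. Of 74 lysozymes, saposin-like proteins and short antimicrobial-type peptides 40 were lower and 16 higher, with lys-2 at 2755 in u74 and 52640.4 in e398 and lys-4 at 15143 in u74 and 151545 in e398. Of 25 tested 6 fell (24.0%) and 3 rose (12.0%), fewer than the 36.1% of all tested genes that fell, and without e398 library 2, 5 rose, while without u74 library 1, u74 library 2 or e398 library 1, 4 fell. spp-11, which fell, had 10.8, 6.95 and 3.43 in u74 libraries, against 359, 126 and 374 in e398 libraries (-5.11 ± 0.59, adjusted p = 0.000687). Of 24 aspartyl and cathepsin proteases 14 were lower and 3 higher, with asp-14 at 8794 in u74 and 371076 in e398 and cpr-5 at 39490.2 in u74 and 745186 in e398. Of 87 genes of lipases and fatty acid metabolism 36 were lower (41.4%, near the 37.2% of all genes) and 21 higher, and equal totals turned this to 22 and 35. The lysosomal lipase lipl-5 averaged 6067 in u74 and 443888 in e398, whereas acs-2, an acyl-CoA synthetase of fatty acid breakdown, averaged 3537 in u74 and 202 in e398 and fat-7, a desaturase, 2893 in u74 and 628 in e398.

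Stress genes were not of 1 kind. Of 52 heat shock genes 23 were higher in u74 (44.2%, against 27.8% of all genes) and 13 lower (25%, against 37.2%). hsp-6, the mitochondrial chaperone, averaged 45909 in u74 and 6193 in e398, whereas the inducible small chaperone hsp-16.41 averaged 24.0 in u74 and 1156 in e398. hsp-16.48, of the same inducible cluster, is on 2 identifiers with nearly identical sequence, and both fell. The first had 10.3, 5.05 and 8.23 in u74 libraries, against 318, 228 and 282 in e398 libraries (-5.002 ± 0.42, adjusted p = 0.000543), and the groups were far apart. hsp-12.1, a small heat shock protein, rose, with 165, 130.1 and 111 in u74 libraries, against 18.98, 21.4 and 18.9 in e398 libraries (2.70 ± 0.38, adjusted p = 0.00108). Of 24 oxidative stress and metal genes 7 were higher (29.2%, near the 27.8% of all genes) and 3 lower (12.5%, against 37.2%). The superoxide dismutase sod-1 averaged 9549 in u74 and 1419.8 in e398 and the metallothionein mtl-2 8752 in u74 and 13490.5 in e398.

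Several lineage-expanded families were divided. Of 225 F-box, MATH and BTB genes, adaptors of protein degradation that vary between nematodes, 110 were lower (48.9%) and 61 higher (27.1%), beside 37.2% and 27.8% of all genes. Of 144 tested 36 fell (25%) and 30 rose (20.8%), beside 36.1% and 14.6% of all tested genes, turning to 28 and 48 with TMM factors. Without u74 library 3, 15 rose. btb-7 had 71.3, 111 and 185 in u74 libraries and none in e398 libraries, at least 58.1-fold higher, whereas fbxa-134 had 7.70, 20.2 and 10.3 in u74 libraries, against 212, 269 and 307 in e398 libraries (-4.35 ± 0.45, adjusted p = 0.000568). Of 56 transthyretin-related genes 20 were higher (35.7%, against 27.8% of all genes) and 22 lower (39.3%, near the 37.2%). The gene ttr-16, which overlaps lin-3, averaged 7192 in u74 and 146025 in e398. ttr-42 had 139.1, 279 and 452 in u74 libraries and none in e398 libraries, at least 138-fold higher, and it overlaps H01M10.1. Of 21 tetraspanins 8 were lower (38.1%, near the 37.2% of all genes) and 4 higher (19%, against 27.8%). tsp-8, which overlaps F33C8.2, averaged 1514 in u74 and 35070.1 in e398, whereas tsp-6 had 149.9, 115.6 and 114 in u74 libraries, against 5.84, 9.86 and 4.21 in e398 libraries (4.12 ± 0.47, adjusted p = 0.000662). Of 15 secreted CAP proteins 10 were lower (66.7%, against 37.2% of all genes) and 1 higher (6.67%, against 27.8%). Of these, scl-2 averaged 1640.3 in u74 and 45115 in e398. Of 9 spig genes 8 were lower and 0 higher, from spig-9 at 3059 in u74 and 70616 in e398 to spig-10 at 931 in u74 and 2347 in e398.

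Most of the highest ratios belonged to genes with few or no reads in e398, and col-8, with an average of 42.4 there, was among them. There were 43 genes with at least 20 in u74 and no read in any e398 library, 39 of them protein-coding and 19 on chromosome II. Another 121 genes had at least 20 in e398 and no read in u74, of which 49 were piRNA and 60 ncRNA genes. Of all 17376 genes considered 16074 were protein-coding, 133 piRNA and 302 ncRNA genes, and 2944 lay on chromosome II. ZK813.1 (chromosome X, 3446311 to 3446935) averaged 1886 in u74 and 0 in e398, at least 897-fold higher. Its neighbour ZK813.2 (X, 3443826 to 3444191) averaged 830.0 in u74 and 0 in e398, at least 395-fold higher, and C17E7.4 averaged 587 in u74 and 0 in e398. rncs-1, a noncoding RNA of epidermis and intestine that binds Dicer, averaged 2345 in u74 and 3.53 in e398. T06D4.1 averaged 1157 in u74 and 1.40 in e398, K04C1.5 978 in u74 and 0.701 in e398, and cdc-25.3, a phosphatase of the cell cycle that overlaps trxr-2, 666 in u74 and 1.40 in e398. The neighbours R04D3.2, R04D3.3 and R04D3.4 on chromosome X (13285121 to 13290631) were high together, with averages of 464 in u74 and 0.548 in e398 for R04D3.2 and 1919 in u74 and 5.18 in e398 for R04D3.3.

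The lowest ratios belonged both to genes of high average in e398 and to low noncoding RNAs with almost no reads in u74. Y48E1B.8 (chromosome II, 13585705 to 13589038, overlapping clec-145) averaged 66.9 in u74 and 23864 in e398, a log2 ratio of -8.46. K06H6.1 (V, 588118 to 589657) averaged 50.3 in u74 and 15207 in e398 and sysm-1, a small secreted peptide used as a reporter of immune signalling, 62.4 in u74 and 16781 in e398. D1086.3 averaged 1929 in u74 and 464833 in e398, the log2 ratio being -7.91. C14C6.3, Y17D7C.2 and F45D11.16 averaged 18.2 in u74 and 3219.6 in e398, 2.40 in u74 and 625 in e398 and 5.86 in u74 and 1086 in e398. Of the noncoding RNAs, F55C5.14 averaged 0.421 in u74 and 217.9 in e398 and F55C5.13 0.211 in u74 and 186 in e398. The antisense RNA anr-57, the piRNA genes 21ur-13612 and 21ur-9996 and the noncoding W04D12.2 had no read in u74 and averaged 158, 149, 145 and 144 in e398. Several of these averages came largely from e398 library 2, which stood apart. F55C5.14 had 62.8, 578 and 12.6 in e398 libraries and F55C5.13 68.6, 457 and 31.5. 21ur-13612 had 51.1, 378 and 18.9 in e398 libraries and 21ur-9996 40.9, 312 and 82.0. W04D12.2 had 121, 227 and 84.1 in e398 libraries, and anr-57, with 234, 192 and 48.4, was highest in library 1.

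For the genes with the smallest p, which were taken among those whose groups do not overlap, the values of single libraries are given as a description. R04D3.4 had 128, 229.9 and 356 normalized counts in u74 libraries and 0 in each e398 library (adjusted p = 0.000492), at least 113-fold higher. F43G6.7 had 132, 239 and 407 in u74 libraries and 0 in each e398 library, at least 124-fold higher. In both, u74 library 3 was the highest and u74 library 1 the lowest. C46G7.5 was more even, with 210.4, 178 and 278 in u74 libraries, against 4.38, 6.57 and 4.21 in e398 libraries (5.20 ± 0.43, adjusted p = 0.000543). T22E5.6 had 303, 303 and 242 in u74 libraries, against 5.84, 13.1 and 8.41 in e398 libraries (4.86 ± 0.42, adjusted p = 0.000543). Among genes that fell, W03F9.9 had 5.65, 6.95 and 6.17 in u74 libraries, against 259.9, 230.0 and 259 in e398 libraries (-5.11 ± 0.38, adjusted p = 0.000543), and overlaps W03F9.11. irld-42 had 2.57, 2.53 and 2.74 in u74 libraries, against 117, 110.1 and 130.4 in e398 libraries (-5.05 ± 0.43, adjusted p = 0.000543). Both fell evenly, with all libraries of a genotype close together. VF15C11L.2, a noncoding RNA, had no read in u74 libraries, against 222, 230.0 and 126 in e398 libraries, at least 281-fold lower against a floor of 3 reads over the u74 libraries (0.686 normalized counts). glb-26, a globin, had none in u74 libraries, against 123, 54.2 and 158 in e398 libraries.

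**Figure D5:**
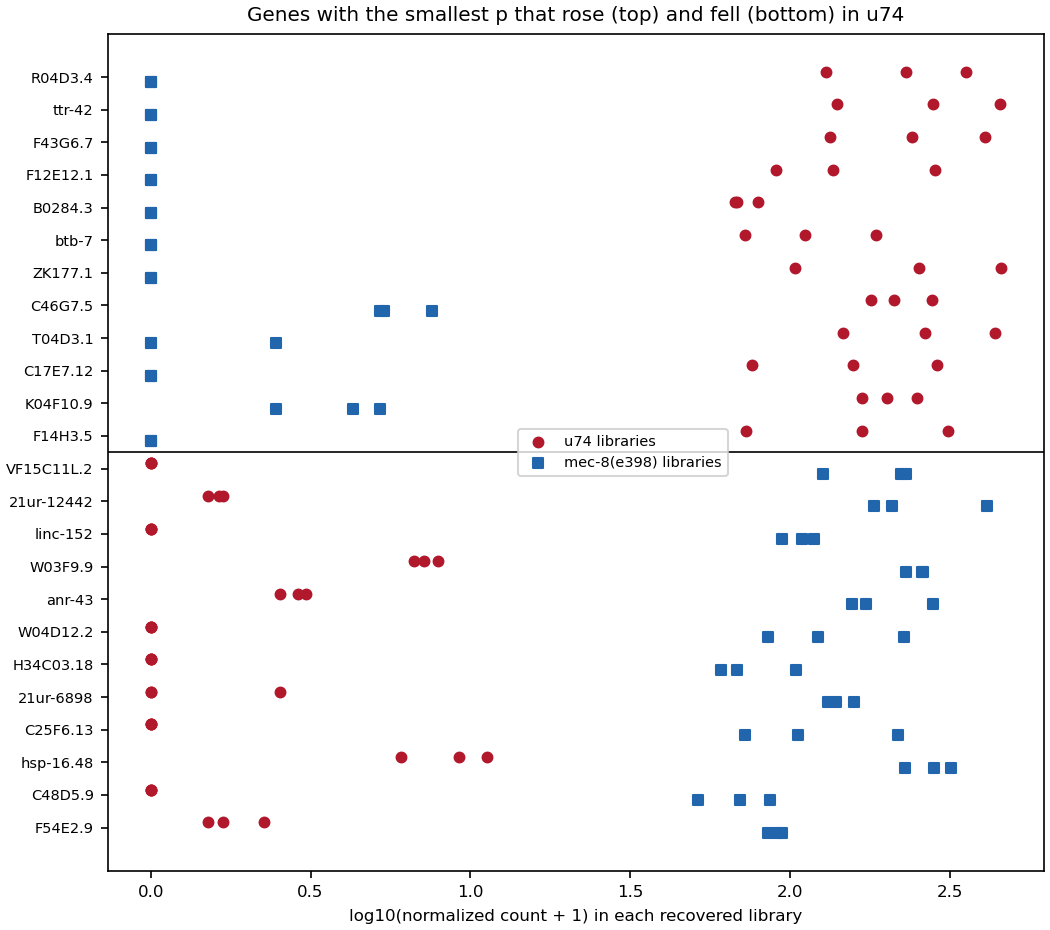
Normalized counts in each recovered library, as log10(normalized count + 1), for 12 genes that rose (above the line) and 12 that fell (below it) in u74, taken by smallest p among named genes with symbols. Red circles are u74 libraries and blue squares e398 libraries. Genes were chosen among those whose groups do not overlap, and several have 0 in all libraries of a genotype.

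Differences were uneven along the genome (coordinates of WBcel235). Among protein-coding genes 36.9% on chromosome III and 35.6% on chromosome I were higher in u74, against 17.7% on X and 22.6% on V, while 46.6% on V and 41.4% on X were lower. Chromosome X took 9.77% of normalized counts in u74 and 18.1% in e398, and chromosome III 19.2% and 10.9%. Runs of at least 6 neighbouring considered genes that were all at least 4-fold lower were found in several clusters. A run of 13 genes on chromosome IV (12903785 to 12941354) held the infection-response gene irg-6 with dod-21 and dod-24, with log2 ratios of -6.72 to -2.65. A second on IV (12948770 to 12991843) held 12 genes, among them dod-22 and dod-17. A run of 13 genes on V (385746 to 450437) held lipl-5, dod-19, irg-8 and dod-20. The P450 cluster on V (3936326 to 3970540) held 10 genes, cyp-35A5 to cyp-34A9, and a run of 8 on V (579277 to 617166) held K06H6.1, with log2 ratios of -8.21 to -2.57. A run of 12 histone genes lay on II (13817760 to 13828697). Of the 50 runs found, 9 were higher in u74, among them 2 on II (1916713 to 1927347 and 2012998 to 2031952) that held bath genes, of the MATH and BTB family. The genes of these runs were chosen after their values were seen.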

How the data were processed

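Poly(A) RNA of whole L4 animals was sequenced, with 3 libraries of u74 and 3 of mec-8(e398). The deposited table holds a signal per gene and genotype: read counts divided by library size factors and averaged over libraries, as its values show. bedtools, HTSeq, DESeq and DESeq2 are named in the submitters' processing notes, with no version, and the aligner, strand setting and genome build are not stated there or in the labels. Genes were named, located and measured for exon length by identifier with Ensembl release 115 (WBcel235).

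From these averages the log2 ratio was computed with a pseudocount of 1 for genes with at least 20 in either column. Averages of at most 300 were split into whole reads per library by searching for the reads that give the deposited value to 9 decimals or 10 digits. All 13415 such values of u74 and 15728 of e398 above 0 had exactly 1 solution. When values were moved at random, 25.5% of u74 and 1.20% of e398 values from 100 to 300 still had a solution, and 0.133% and 0% from 10 to 100. The libraries found in this way carry no replicate number and total depth could not be recovered, so the reads in tested genes stand for it.

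On the recovered libraries limma 3.58.1 (R 4.3.3) was fitted with a trend on log2(normalized count + 1) for genes with a mean of at least 5 over the 6 libraries, with Benjamini-Hochberg adjustment over 6590 genes and a threshold of 0.05. "Rose" and "fell" are used of genes past it. On simulated data 67.0% of 200 genes changed 4-fold were recovered among 6356 genes, 2.19% of calls were unchanged genes, and all drawn reads were returned. The simulated libraries of a genotype shared a common spread, no library stood apart, and far fewer genes changed than were called in the data. The simulation therefore does not give the rate of false calls in the data. Named genes are mec-8 and its 4 described targets, the 20 highest and 20 lowest ratios among genes with at least 50, the 15 smallest p in each direction with groups that do not overlap, and, of 51 gene lists, the 4 most counted, the 3 highest and 3 lowest ratios and members called by limma. The members and lists were chosen with earlier results of these data known. Alternatives changed the pseudocount, the low-value filter, the scaling, the limma method and the libraries used. The wild type was not used, and u218 libraries were used only in 1 alternative.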

Additional observations from a re-analysis of the deposited data

How the results depend on the processing

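The count of genes higher in u74 by average (4839) became 8108 with equal column totals and 2413 at a 4-fold threshold, and the count of lower genes (6456) became 11270 without a filter on low values. Among tested genes 962 rose, and 1731 did with TMM factors, 1610 with libraries centred on their median and 497 among averages of at most 100, an alternative chosen after seeing the data. The 2380 genes that fell became 1352 with a mean of at least 20, where 4108 genes were tested in place of 6590. With 1 library left out, 626 to 1263 genes rose and 1906 to 2380 fell, and 626 was the count without u74 library 3. Apart from that smaller set of genes, the cause was not tested. The other alternatives kept these counts within 1.5 times, and no named gene that limma called turned its direction: of the pairs of a named gene and an alternative, 1124 kept their side of the threshold, 10 passed it anew and 33 no longer passed it. No paired analysis was possible because the recovered libraries carry no replicate numbers. High transcripts were not split into libraries, so families such as ribosomal proteins, yolk proteins and most collagens have averages with no error and no test. Genes at a few reads a library have coarse values, and the floors of 3 reads cover counting error only.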

Other observations

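Among low genes of no list, F54E2.9 had 0.513, 1.26 and 0.686 normalized counts in u74 libraries, against 90.5, 93.6 and 84.1 in e398 libraries, and B0284.3 had 78.5, 66.3 and 67.2 in u74 libraries, against 0, 0 and 0 in e398 libraries. The lowest class of genes considered, with 20 to 50 in the higher column, had 17.3% higher and 56.4% lower in u74, the class from 1000 to 3000 had 37.1% and 30.6%, and the class from 10000 up had 22.3% and 47.4%. The 10 most counted genes took 6.13% of normalized counts in u74 and 14.9% in e398.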
